A study of Mus musculus with 2 samples.

Results

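The genes described here are 8 markers of the glia of the adrenal medulla and of its nerves: Sox10, S100b, Foxd3, Erbb3, Cdh19, Fabp7, Gfap and Mbp. They were taken by symbol from a fixed list, and all 8 were found among the 55536 gene IDs of the gene tables. Total RNA of whole adrenal glands was sequenced from female B6CASTF1/J mice, which are F1 hybrids of C57BL/6J and CAST/EiJ, aged 10 days and with no treatment given in the labels. There is 1 group with 2 libraries, numbered as biological replicates 1 and 2, each from 300 ng of RNA with ERCC spike-in RNA added. The tissue samples are labelled as different females, yet the library descriptions repeat 1 female and 1 cDNA number and share a donor entry. SDs here therefore measure the spread between these 2 samples, which may be technical.

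Schwann cells wrap the axons of peripheral nerves, and sustentacular cells are the supporting glia that surround chromaffin cells in the medulla. Both descend from the neural crest. Schwann cell precursors that arrive along the nerves depend on neuregulin signals through the ErbB3 receptor and carry the transcription factors Sox10 and Foxd3. They give rise to many chromaffin cells of the mouse and to the mature glia. Myelinating Schwann cells later switch on genes of the myelin sheath, such as Mbp. In whole tissue, fewer cells of a type and less RNA per cell cannot be told apart.

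Levels are given as TPM, the share of a transcript among all transcripts of a library after correction for length, and all 8 genes are protein-coding. S100b was the most abundant and Gfap the least, and 6 of the 8 reached 1 TPM in each library. The summed level of the 8 genes was 41.4 and 45.7 TPM in replicates 1 and 2, of which S100b gave 19.9 and 26.5 TPM. The sum was higher in replicate 2, as was S100b, while 5 of the 8 genes were lower there. The 8 chromaffin genes examined beside them, led by the granule protein gene Chga at 331 ± 23.6 TPM (SD, n = 2), summed to 1072 and 1037 TPM. The libraries held 35287805 and 33068267 expected counts on genes. A count of 0 allows up to 3 counts, or 0.0850 and 0.0907 CPM, which covers counting error only. All 8 genes lay above 3 counts in both libraries.

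The crest transcription factors were low. Sox10, the SOX factor that specifies crest-derived glia, was 1.76 and 1.25 TPM in replicates 1 and 2, from 132 and 101 counts. The 95% credibility intervals deposited by the authors, 1.43 to 2.31 and 1.14 to 1.96 TPM, overlapped between the libraries. Sox10 lies on chromosome 15 from 79154908 to 79165240 (mm10, minus strand). Foxd3, a forkhead factor of premigratory crest and glial precursors, was 1.16 and 0.780 TPM, from 87 and 54 counts, and its intervals of 0.916 to 1.39 and 0.577 to 0.984 TPM also overlapped. Foxd3 lies on chromosome 4 from 99656299 to 99658622.

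The receptor and adhesion genes were of like size or somewhat higher. Erbb3, the neuregulin receptor of Schwann cells and their precursors, was 3.30 and 3.92 TPM in replicates 1 and 2, from 657 and 726 counts. Its credibility intervals, 2.99 to 3.48 and 3.57 to 4.13 TPM, did not overlap. Erbb3 lies on chromosome 10 from 128567523 to 128589652. Cdh19, a cadherin of crest-derived glia, was 1.11 and 1.54 TPM from 133 and 156 counts, with overlapping intervals of 0.919 to 1.40 and 1.26 to 1.91 TPM. Cdh19 lies on chromosome 1 from 110888326 to 110977584. Cdh19 lay below Sox10 in replicate 1 and above it in replicate 2, with log2 ratios of -0.67 and 0.30, so these genes had no common order. The mean ratio was -0.18 ± 0.68 (SD, n = 2).

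S100b, which encodes the calcium-binding protein used to stain sustentacular and Schwann cells, was 19.9 and 26.5 TPM in replicates 1 and 2, from 926 and 1147 counts. The intervals of 18.2 to 20.7 and 24.5 to 27.5 TPM did not overlap. At a mean of 23.2 ± 4.69 TPM (SD, n = 2) it stood above 86.6% of the 22015 nuclear protein-coding genes. S100b lies on chromosome 10 from 76253853 to 76261159. It exceeded Sox10 by log2 ratios of 3.50 and 4.41 in replicates 1 and 2. The gene span of Dip2a overlaps S100b on the opposite strand, yet the exons of the 2 genes share 0 nucleotides in the annotation. Whether counting used the strand is not stated, so overlaps matter. Foxd3 shares 89 of its 2324 exonic nucleotides with the miRNA gene Gm23366, which had 0 counts in both libraries. Erbb3 (with Mir6917), Cdh19 (with Gm38255 and Gm36944), Gfap (with Gm26668) and Mbp (with Rpl21-ps8) share 0 exonic nucleotides with the genes that overlap them. Fat cells are also known to express S100b, and the 8 adipocyte genes examined, among them Ucp1 of brown fat, were abundant, with sums of 4652 and 5618 TPM in replicates 1 and 2. Their part in the S100b level was not tested.

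Fabp7, the brain-type fatty acid binding protein of immature Schwann cells and satellite glia, was 5.25 and 4.30 TPM in replicates 1 and 2, from 125 and 95 counts. Its intervals, 4.33 to 6.15 and 3.46 to 5.17 TPM, overlapped. Fabp7 lies on chromosome 10 from 57784881 to 57788450 and exceeded Sox10 by a log2 ratio of 1.68 ± 0.15 (SD, n = 2). Gfap, the intermediate filament of astrocytes and of some non-myelinating Schwann and sustentacular cells, was 0.300 and 0.160 TPM from 26 and 13 counts. Its intervals reached from 0.224 to 0.739 and from 0.115 to 0.572 TPM. Gfap lies on chromosome 11 from 102887336 to 102900912 and stood below S100b by a log2 ratio of -6.71 ± 0.94 (SD, n = 2). Vimentin (Vim), the filament gene that immature glia share with fibroblasts and endothelium, was at 187 ± 13.1 TPM.

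Mbp, which encodes myelin basic protein and, from an upstream start, the Golli proteins, was 8.62 and 7.21 TPM in replicates 1 and 2, from 800 and 606 counts. The intervals of 8.59 to 10.6 and 7.08 to 9.14 TPM overlapped. Mbp stood above 66.0% of nuclear protein-coding genes. It lies on chromosome 18 from 82475146 to 82585637.

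**Figure D1:**
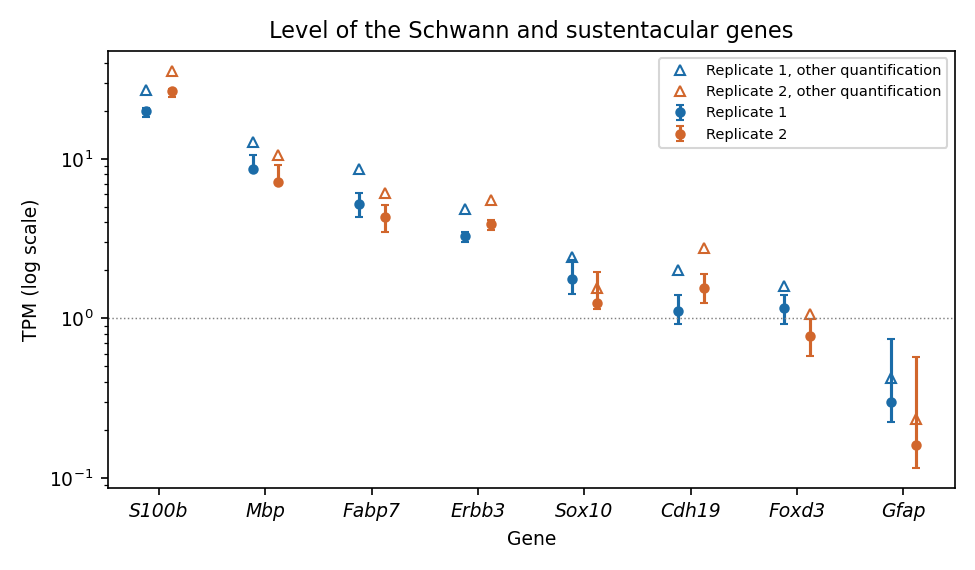
Level of each gene in TPM (log axis) in replicates 1 and 2. Filled points with bars are the gene table with the authors' 95% credibility interval, open triangles are the other quantification, and the dotted line marks 1 TPM. S100b stands highest at 19.9 and 26.5 TPM and Gfap lowest at 0.300 and 0.160 TPM.

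In the order of mean level, S100b was followed by Mbp, Fabp7, Erbb3, Sox10, Cdh19, Foxd3 and Gfap. The values of neighbours in that order overlapped between Sox10 and Cdh19 and between Cdh19 and Foxd3, and the other neighbours were apart in both libraries. A separate quantification of the same libraries, also deposited, gave higher TPM for each gene. There S100b was at a mean of 31.5 TPM, Mbp at 11.7, Fabp7 at 7.40, Erbb3 at 5.20, Cdh19 at 2.39, Sox10 at 1.99, Foxd3 at 1.33 and Gfap at 0.329 TPM. The order was the same apart from Sox10 and Cdh19, whose values overlapped there too, and Cdh19 and Foxd3 were apart. Of the 8 genes, 7 reached 1 TPM in each library in that quantification. TPM is a share of all RNA in a table. The gene table includes abundant non-coding RNAs, and over nuclear protein-coding genes alone S100b came to 69.7 TPM and Sox10 to 4.50 TPM.

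The Mbp gene has 16 annotated transcripts, and their first exons fall into separate parts of the locus. For 4 transcripts the start lies within 224 nucleotides of the first start of the gene, which is the Golli start. The other 12 start at least 79324 nucleotides further on, at the starts of classic myelin basic protein or later. RNA was assigned to both. The upstream group held 3.91 TPM in replicate 1 and 3.33 TPM in replicate 2, and the downstream group 4.72 and 3.86 TPM. The upstream share was 45.3% and 46.3% of Mbp TPM, with a mean of 45.8 ± 0.71% (SD, n = 2). In the other quantification that share was 54.5% and 59.6%, a mean of 57.0 ± 3.66%, so which group was the larger depended on the quantification. In expected counts, which grow with transcript length, it was 63.8% and 65.4%.

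Within the upstream group most TPM of the gene table was assigned to Mbp-205, at 2.59 and 2.11 TPM, with credibility intervals of 2.29 to 2.81 and 1.84 to 2.33 TPM. Mbp-205 ends 26934 nucleotides before the end of the gene, and 5.86% of its exonic bases are shared with transcripts of the downstream group. Its assignment therefore rests mostly on bases outside the annotated exons of the downstream transcripts. Mbp-205 ends at 82558703, past the first downstream start at 82554470, so some of these bases may lie in introns of the downstream transcripts. Whether unspliced RNA of those transcripts was assigned to Mbp-205 was not tested. The values of the other quantification for it were 3.72 and 3.11 TPM. Mbp-201, which begins 16 nucleotides further on, runs to the end of the gene and shares 78.0% of its exonic bases with the downstream group, was 1.13 and 1.01 TPM, against 2.95 and 2.87 TPM in the other quantification.

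Single downstream transcripts were less certain than their sum. Mbp-212 was 1.70 and 0.140 TPM in replicates 1 and 2, with intervals of 0.700 to 2.48 and 8.70e-05 to 0.969 TPM, which overlapped. Mbp-211 was 1.62 and 2.13 TPM and Mbp-216 was 1.10 and 1.17 TPM. In the other quantification Mbp-215, at 0 in the gene quantification's transcript table, took 1.02 and 2.28 TPM, and Mbp-210, also at 0 there, was 1.20 TPM in replicate 1 and 0 in replicate 2. Lymphocytes are also known to make Golli transcripts, and the 8 T and B lymphocyte genes examined summed to 26.27 and 13.04 TPM in replicates 1 and 2. Their part in the Mbp level was not tested.

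**Figure D2:**
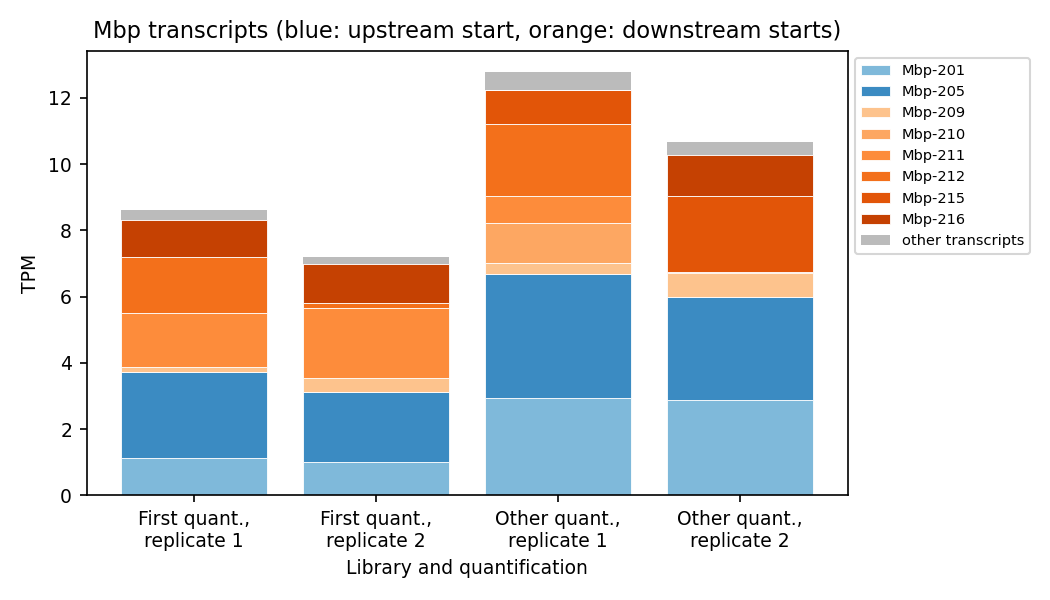
Mbp TPM by transcript in each library, as bars stacked from 0, for the gene table's quantification (first) and the other quantification. Blue marks transcripts with the upstream start, orange those with downstream starts, and grey the transcripts under 0.5 TPM everywhere. The upstream share is 45.3% and 46.3% in the first and 54.5% and 59.6% in the other.

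Transcript assignment also differed between libraries for Sox10. In replicate 1 the gene's TPM went mostly to Sox10-201, at 1.39 TPM with Sox10-203 at 0, and in replicate 2 mostly to Sox10-203, at 1.18 TPM with Sox10-201 at 0. All 2713 exonic bases of Sox10-201 are also in Sox10-203, which has 67 more, and the credibility intervals of each transcript overlapped between the libraries (0.00746 to 1.36 and 1.17e-05 to 1.02 TPM for Sox10-201), with the value of Sox10-201 in replicate 1 just above its own interval. The sum for the gene is therefore better determined than the split. In the other quantification the same transcripts were 2.22 and 0 TPM in replicate 1 and 0.401 and 1.15 TPM in replicate 2. Sox10-202 had 14.7% of the gene's TPM in replicate 1 and 1.44% in replicate 2.

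In each of the remaining genes most TPM went to 1 transcript. S100b, Erbb3 and Foxd3 have 1 annotated transcript each. Fabp7-201 took 97.7% and 96.7% of Fabp7 TPM. Cdh19-201 took 92.3% and 81.4%, and the rest was assigned to Cdh19-202, a transcript annotated as processed. In the other quantification Cdh19-202 took more, 26.9% and 35.9%, against 7.67% and 18.6% here. Gfap-201 took 93.5% and 87.2%, and Gfap-202 took 6.52% and 12.8%, from 1.66 and 1.64 counts. The other quantification gave Gfap-202 6.19% and 20.5%.

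With 1 group, the comparison that remains is between the libraries, and it was made gene by gene on counts scaled by TMM, with a two-sided exact binomial test. A gene was called at a Benjamini-Hochberg adjusted p under 0.05, over all 18883 genes tested, together with a difference of at least 2-fold. The test measures counting error of these libraries only, and over 2 libraries an exact test across samples cannot go below p = 0.5. All 8 genes had enough counts to be tested, and 0 of 8 were called, where 6.85% of all genes tested were. At an unadjusted p under 0.05 there were 5 of 8, beside 34.5% of all genes tested. In the other quantification 0 of 8 were called, beside 6.19% of the 20422 genes tested there. Of the log2 ratios of replicate 2 over replicate 1, 5 were below 0 and 3 above, with a median of -0.23 beside -0.01 over all genes tested.

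Without the 2-fold limit, 3 of the 8 genes passed the adjusted threshold, where 26.5% of all genes tested did. S100b was 1.38-fold higher in replicate 2 (95% interval 1.26 to 1.51, adjusted p = 3.84e-12 by the exact binomial test). Erbb3 was 1.23-fold higher in replicate 2 (95% interval 1.11 to 1.37, adjusted p = 0.000763 by the same test). Mbp was 1.18-fold higher in replicate 1 (95% interval 1.06 to 1.32, adjusted p = 0.00821 by the same test). In the other quantification the Mbp difference did not pass, with an adjusted p of 0.0757 from the exact binomial test. S100b and Erbb3 thus differed by more than counting error in both quantifications, and Mbp, in the opposite direction, in the gene table only. All 3 differences were less than 2-fold.

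The other 5 genes did not pass even without the fold limit. Cdh19 had a log2 ratio of 0.39 (95% interval 0.04 to 0.73), Sox10 of -0.23 (-0.62 to 0.15), Fabp7 of -0.24 (-0.64 to 0.16) and Foxd3 of -0.53 (-1.05 to -0.03). The adjusted p of the exact binomial test was 0.0844 for Cdh19 and 0.110 for Foxd3. Gfap had the widest interval, at -0.82 (-1.93 to 0.17), so a 2-fold difference was within the counting error of Gfap and, just, of Foxd3. For Sox10, Fabp7 and Cdh19 the intervals exclude a 2-fold difference in either direction.

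**Figure D3:**
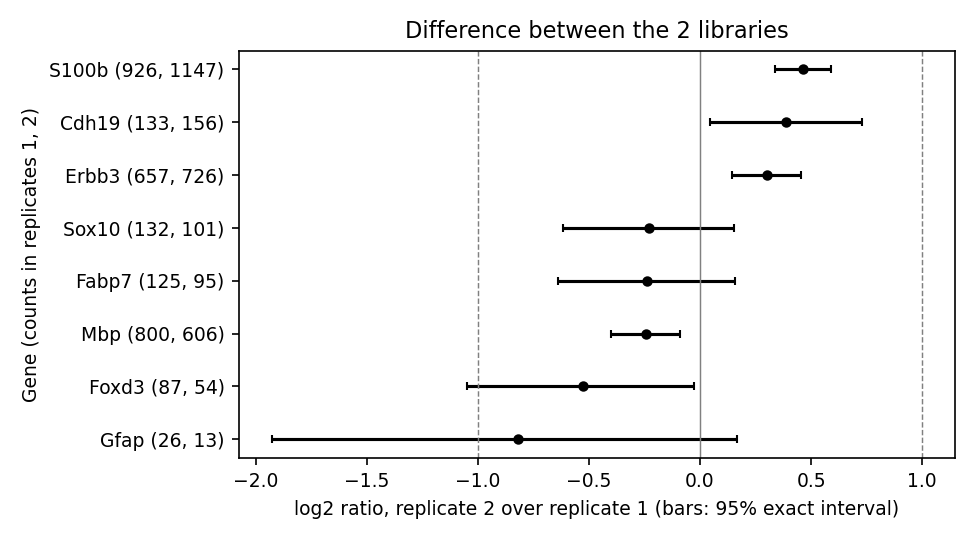
Log2 ratio of replicate 2 over replicate 1 for each gene, with exact 95% intervals as bars and the counts of both libraries beside the name. Dashed lines mark 2-fold. All points lie between the dashed lines, with S100b highest at 0.46 and Gfap lowest at -0.82.

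The other myelin genes reached 38.8 TPM at most in mean level, and 7 of 16 reached 1 TPM in each library. Pmp22, a myelin gene that many non-glial cells also express, was 40.2 and 37.3 TPM in replicates 1 and 2, Cnp 11.8 and 10.3 TPM, and Gjb1, the connexin of Schwann cells and hepatocytes, 13.9 and 3.32 TPM. Periaxin (Prx), a protein of myelinating Schwann cells, was 1.68 and 1.41 TPM, while Mag was 0.190 and 0.240 TPM and Egr2, the transcription factor of myelination, 0.380 and 0.280 TPM. Both Mag values, and that of Egr2 in replicate 2, lay below their credibility intervals.

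Of the 14 myelin genes with enough counts, 1 was called higher in replicate 1, where 4.11% of all genes tested were, and 1 higher in replicate 2, where 2.74% were. The first was Gjb1, at a log2 ratio of -1.99, and the second Mal, a proteolipid of myelin and of kidney epithelium, at 1.57. The 8 liver genes examined were all called higher in replicate 1, with summed levels of 4711 and 910.0 TPM in replicates 1 and 2. The 8 kidney genes were all called higher in replicate 2, with sums of 0.970 and 223 TPM. Their part in the Gjb1 and Mal differences was not tested. The median of the myelin list was -0.13.

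Genes of the neural crest and of glial precursors included Zeb2 at 45.8 ± 0.26 TPM and Postn at 109 ± 2.91 TPM (SD, n = 2), which are also known from mesenchymal cells, and Ets1 at 26.9 ± 0.40 TPM. Ednrb, the endothelin receptor of crest cells and endothelium, was 16.01 and 18.38 TPM, and Ngfr, the low-affinity neurotrophin receptor of Schwann precursors, 7.85 and 6.58 TPM. Sox2, a factor of glial progenitors, was 0.150 and 0.160 TPM from 10 counts in each library. Of 18 genes 1 was called, close to the share of 6.85% over all genes tested. It was Pax3, with 32 counts in replicate 1 and 1 count in replicate 2. Pax3 is also a factor of muscle progenitors, and 5 of the 8 skeletal muscle genes were called higher in replicate 1 and 1 higher in replicate 2, with sums of 3040 and 1097 TPM. Their part in the Pax3 difference was not tested. The median of this list was -0.01.

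The neuregulin and ErbB genes were examined as partners of Erbb3. Erbb2, the kinase partner that ErbB3 needs, was 2.51 and 3.92 TPM in replicates 1 and 2. Erbb3 stood above Erbb2 in replicate 1, with a log2 ratio of 0.39, and level with it in replicate 2, with a ratio of 0, and the mean of 0.20 ± 0.28 (SD, n = 2) was within the spread. Among ligands, Nrg1, the main axonal signal to Schwann cells, was 1.07 and 0.690 TPM. Both values lay below its credibility intervals, 1.25 to 2.38 and 0.900 to 1.91 TPM. Nrg2 was 0.380 and 0.560, Nrg3 1.41 and 1.17, and Nrg4, a ligand of brown fat that acts through ErbB4, 12.8 and 13.8 TPM. The signalling genes Shc1, Grb2 and Ptpn11, which nearly all cells express, led the list at 33.8 ± 2.88, 32.1 ± 3.03 and 27.8 ± 0.81 TPM.

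Of the 14 neuregulin and ErbB genes 1 was called, close to the share of 6.85% over all genes tested. It was Erbb4, which was higher in replicate 2 at a log2 ratio of 1.59, with 0.410 and 1.28 TPM. The kidney is known to express Erbb4 and Erbb3, and the kidney genes given above were called in the same direction as Erbb4. Erbb3 and Erbb2 also had ratios above 0, at 0.30 and 0.70, without being called. The part of the kidney genes in these differences was not tested. The median of the list was 0.13.

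The families of S100b and Fabp7 held members both above and below them. S100a1 led the S100 family at 97.6 ± 15.3 TPM, with S100a11 at 73.3 ± 5.52 and S100a10 at 69.9 ± 2.16 TPM (SD, n = 2). S100a8, a granulocyte gene, was the only one of the 9 called, at a log2 ratio of -1.01, and its partner S100a9 lay at -0.97. In the FABP family Fabp4, the carrier of fat cells, reached 1728 ± 274 TPM, far above Fabp7 at 4.78 ± 0.67 TPM. Fabp5, a carrier of epithelial and immune cells, was at 46.9 ± 10.8 TPM. The 3 called of 5 tested were Fabp1, Fabp2 and Fabp3, at -2.42, -2.78 and -1.27, carriers known from liver, intestine and muscle. Among intermediate filament genes Des, the filament of muscle, was the 1 called of 6, at -2.04. Beside these counts for the 3 families, 6.85% of all genes tested were called. Prph, the filament of peripheral neurons, was 19.5 and 13.2 TPM. The medians of these lists were 0.08 for S100, -1.27 for FABP and -0.27 for filament genes.

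Marker lists of other cells that share these genes were then examined. Oligodendrocytes and astrocytes of the brain also express Mbp, Sox10, S100b and Gfap. In the list of central glia, Mog had 0 and 1 counts in replicates 1 and 2, Olig2 1 and 0, Opalin 1 and 1, and Gjb6 0 in both. These are within the limit that a count of 0 allows, and Mobp had 3 and 4 counts. Of that list Aqp4 was highest, at 1.26 and 0.840 TPM, followed by Olig1 at 0.520 and 0.390 and Slc1a2 at 0.200 and 0.310 TPM. The values of Aqp4 and Slc1a2 lay below their credibility intervals, which reached 2.07 and 1.66 TPM for Aqp4 and 2.79 and 3.14 for Slc1a2. The whole list of 8 summed to 2.04 and 1.69 TPM, and 0 of 3 tested genes were called, beside 6.85% of all genes tested. The part of brain glia in the levels of the 8 genes was not tested. Melanocytes also express Sox10, and their genes Tyr, Tyrp1, Dct and Mlana had 0 to 3 counts in each library, with Pmel at 0.680 and 1.02 TPM. The melanocyte list summed to 0.880 and 1.15 TPM.

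The lists of the cells that Schwann and sustentacular cells accompany had no called gene, where 6.85% of all genes tested were called. With 8 genes in a list, 0 called is close to that share. The 2-fold limit set aside smaller differences, such as Pnmt (chromaffin) at 0.54 and Prph (neuronal) at -0.54. Their adjusted p was 9.74e-89 and 6.23e-13 by the exact binomial test. Of the 8 chromaffin genes 0 were called, with a median log2 ratio of -0.07 and values from -0.17 to 0.54. Of the 8 neuronal genes 0 were called, with all ratios below 0 and a median of -0.31, and sums of 113 and 85.8 TPM. Stmn2, a growth protein of axons, led at 33.9 and 26.7 TPM. Of the 8 steroidogenic cortex genes 0 were called, with a median of 0.10 and sums of 3870 and 4167 TPM, and of the 8 fibroblast and perineurial genes 0 were called, with a median of 0.20 and sums of 390 and 553 TPM. The adipocyte list had 0 of 8 called and a median of 0.26, with all ratios above 0. The lymphocyte list had 4 of 8 called higher in replicate 1 and a median of -1.003. Medians were -2.28 for liver, 8.56 for kidney and -1.27 for skeletal muscle. The ratios of S100b, Cdh19 and Erbb3, at 0.46, 0.39 and 0.30, were above 0. So were the kidney, adipocyte, steroidogenic cortex and fibroblast medians. Those of Mbp, Sox10, Fabp7, Foxd3 and Gfap, at -0.24, -0.23, -0.24, -0.53 and -0.82, were below 0. So were the chromaffin, neuronal, lymphocyte, muscle and liver medians, the chromaffin one close to the -0.01 over all genes tested. A shared sign does not tie a gene to a list. The part of any of these cells in the differences was not tested.

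**Figure D4:**
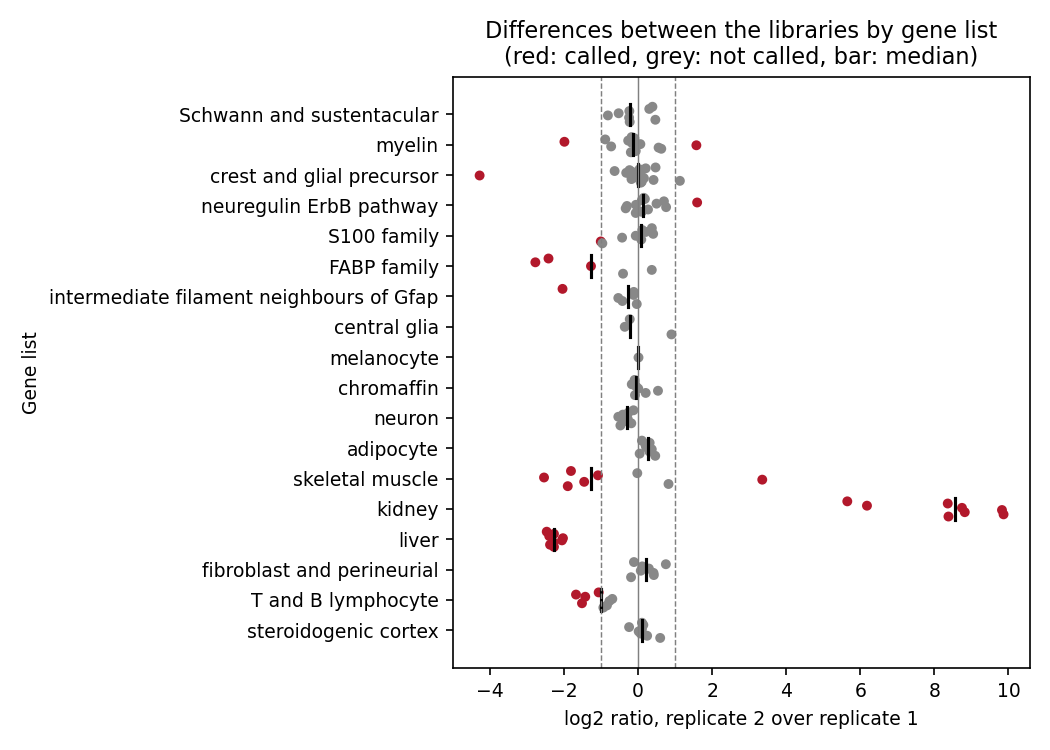
Log2 ratio of replicate 2 over replicate 1 for each gene with enough counts, by list (points, red where called, grey where not; black bar, list median; dashed lines, 2-fold). The 8 Schwann and sustentacular genes lie between -0.82 and 0.46 with 0 called, while the liver genes have a median of -2.28 and the kidney genes of 8.56.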

How the data were processed

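Expected counts, TPM, the percent of a gene's TPM per transcript and credibility bounds of TPM (a signal range) were deposited by the authors in tables with the column names of RSEM. Estimated counts and TPM were deposited by the authors in a second transcript table with the column names of kallisto, which was summed per gene. The genome build is mm10 and the gene models are M21, per the file headers and notes. Aligner, quantifier and strand setting: not given in the sources used here. GENCODE M21 gave coordinates and exons.

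Expected counts of genes, rounded and without spike-ins, were scaled with TMM (edgeR 4.0.16, R 4.3.3). The exact binomial test took genes whose counts summed to 20 or more, and log2 ratios used a prior count of 0.5 (Python 3.11.15, scipy 1.17.1). Intervals of ratios are exact 95% Clopper-Pearson intervals. With 1 group, no edgeR quasi-likelihood contrast exists. The test was checked on data simulated with counting error only, under total count scaling. That check cannot show how the test behaves with spread between samples. The transcripts of Mbp were split at 40 kb from the first start.

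The 8 genes and the 17 lists of 154 other genes were chosen with earlier results of these data known. Named genes are the 8, then up to 3 of the highest and each called gene per list, the genes of 8 ratios, overlapping genes, and transcripts with at least 10% of their gene; for lists of other cell types and tissues mostly counts, medians and sums are given. Names outside that rule (Prx, Mag, Egr2, Ngfr, Ednrb, Sox2, Nrg1, Nrg2, Nrg3, Nrg4, S100a9 Ucp1 and the low central glia and melanocyte genes) were chosen after their values were seen. A few of the genes named by this rule are left out of the text.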

Additional observations from a re-analysis of the deposited data

How the results depend on the processing

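The count of 0 called among the 8 genes held with total count scaling, DESeq2 median-of-ratios size factors, ERCC spike-in scaling, no filter on low counts, an adjusted p under 0.01 and the other quantification. It rose to 3 with no fold limit, and the count of called genes among the 154 others rose from 35 to 96. With the remaining alternatives that count ran from 33 to 37. The sign of all 8 log2 ratios was kept under each other scaling and in the other quantification. The filter, the fold limit and the adjusted p limit do not enter the ratios. Of the 8 genes, 6 reached 1 TPM in each library, and 7 in the other quantification or over protein-coding genes. It ran from 6 to 7 when 1 replicate was left out. Of the 8 ratios between genes, 6 had the same sign in both libraries in each quantification and with a pseudocount of 0.1 TPM. The mean upstream share of Mbp moved from 45.8% to 57.0% in the other quantification, and the cause was not tested. It ran from 45.3% to 46.3% when 1 replicate was left out. The low counts of Gfap and Foxd3 limit what can be said of them. No paired analysis was possible because there is 1 group.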
